A study of Mus musculus with 8 samples.

Results

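The response of fat-1 hearts to pressure overload was examined by comparing mRNA of 2 Fat1-TAC libraries with mRNA of 2 Fat1-Sham libraries, over the 13077 of 25929 listed genes that reached 1 FPKM (fragment counts divided by transcript length and by library depth) or more in at least 2 of these 4 libraries. Fat-1 mice carry a C. elegans gene for an n-3 fatty acid desaturase, an enzyme mammals lack, and convert n-6 into n-3 polyunsaturated fatty acids (PUFAs) in their own tissues. Transverse aortic constriction (TAC) narrows the aortic arch, and sham mice underwent the operation without the constriction. Surgery was performed at an age of 3 months. The other 4 libraries of the study are WT-Sham and WT-TAC hearts of C57BL/6 littermates without the transgene, 2 libraries each, and serve here only for a test of whether the response differed between genotypes. Only mouse genes are listed, and transgene mRNA was not analysed here. RNA came from whole hearts according to the methods and from ventricular tissue according to the labels, and each library came from a separate sample.

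A heart that pumps against a raised pressure thickens its wall and, in the mouse, turns on genes of the fetal ventricle, among them the slow β-myosin heavy chain Myh7 and the natriuretic peptides Nppa and Nppb, while the fast α-myosin heavy chain Myh6 and genes of fatty acid oxidation tend to fall. PPARα and its coactivator PGC-1α drive fatty acid oxidation genes in cardiomyocytes, and long-chain fatty acids are ligands of PPARs. Fibroblasts add collagen and matricellular proteins. The heart also keeps its own circadian clock, in which CLOCK or NPAS2 with ARNTL (BMAL1) switch on Per, Cry, Nr1d and PAR bZIP genes, whose products feed back on the activators.

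The 4 fat-1 libraries held between 17780695 and 19555675 fragments, recovered from the FPKM values, and the 2 libraries of each group correlated at r = 0.985 across genes on the log2(FPKM + 1) scale. In a principal component analysis, the first component (44.26% of the variance) set the Fat1-Sham libraries, at -18.36 and -14.92, apart from the Fat1-TAC libraries, at 19.14 and 14.15. The second component (34.23%) set Fat1-Sham1 and Fat1-TAC2 (13.56 and 15.69) apart from Fat1-Sham2 and Fat1-TAC1 (-17.23 and -12.02). It thus separated the libraries within each group, and the rest of the variance lay outside both components. Markers of other tissues also differed between libraries of a group. The summed level of the 14 atrial genes was 2917 FPKM in Fat1-Sham1 and between 895 and 1027 FPKM in the other 3 libraries. The adipocyte gene Adipoq was at 42.5 FPKM in Fat1-Sham1 and 40.7 FPKM in Fat1-TAC2, against 9.04 FPKM in Fat1-Sham2 and 0.818 FPKM in Fat1-TAC1. Immunoglobulin Igkc was at 299 FPKM in Fat1-TAC2 and between 3.94 and 6.24 FPKM in the other fat-1 libraries. The 12 cardiomyocyte markers, which define the labelled tissue, summed to between 64011 and 73097 FPKM in every fat-1 library. Whether the amounts of other tissue had a part in the results was not tested, and fewer cells of a type and less RNA per cell cannot be told apart in such libraries.

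**Figure D1:**
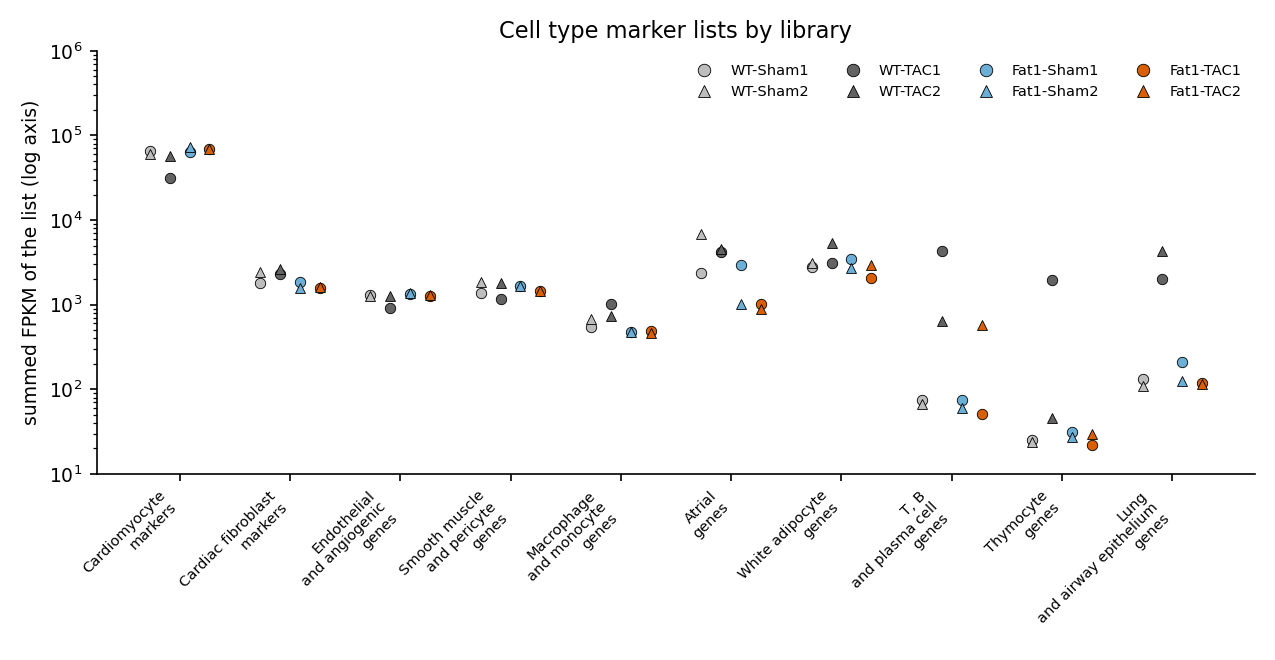
Summed FPKM of marker gene lists (vertical log axis) in each of the 8 libraries, with circles for replicate 1 and triangles for replicate 2 of WT-Sham (light grey), WT-TAC (dark grey), Fat1-Sham (blue) and Fat1-TAC (orange). Cardiomyocyte markers lie together in the fat-1 libraries, the atrial sum of Fat1-Sham1 (2917 FPKM) stands above the other 3, and the T, B and plasma cell sum of Fat1-TAC2 (571 FPKM) stands above the 51 to 75 FPKM of the other fat-1 libraries.

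Differentially expressed genes (DEGs) were called with limma where the fold change exceeded 1.5 in either direction and the p-value, adjusted by Benjamini-Hochberg, was under 0.1, as in the methods, and 84 genes met both. Of these, 57 (0.436% of the genes tested) were upregulated in Fat1-TAC hearts and 27 (0.206%) were downregulated. Of the 84, 9 upregulated and 4 downregulated genes belonged to a list of 20 circadian clock genes. The median log2 fold change over all genes was 0.02, and 53.6% of genes had a log2 fold change above 0. A looser rule kept the fold change and asked for an unadjusted p under 0.05, which 299 higher genes (2.29%) and 127 lower genes (0.971%) met. Values of the groups did not overlap for 3565 genes (27.3%) that were higher in both Fat1-TAC libraries and for 2980 genes (22.8%) that were lower. The smallest adjusted p was 0.017, and the number of DEGs depended on how the spread between libraries was estimated. A fit with the WT libraries included called 1 gene, a per-gene test called 0 higher and 0 lower (141 and 59 at an unadjusted p under 0.05), and the fit without Fat1-TAC2 called 1.

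**Figure D2:**
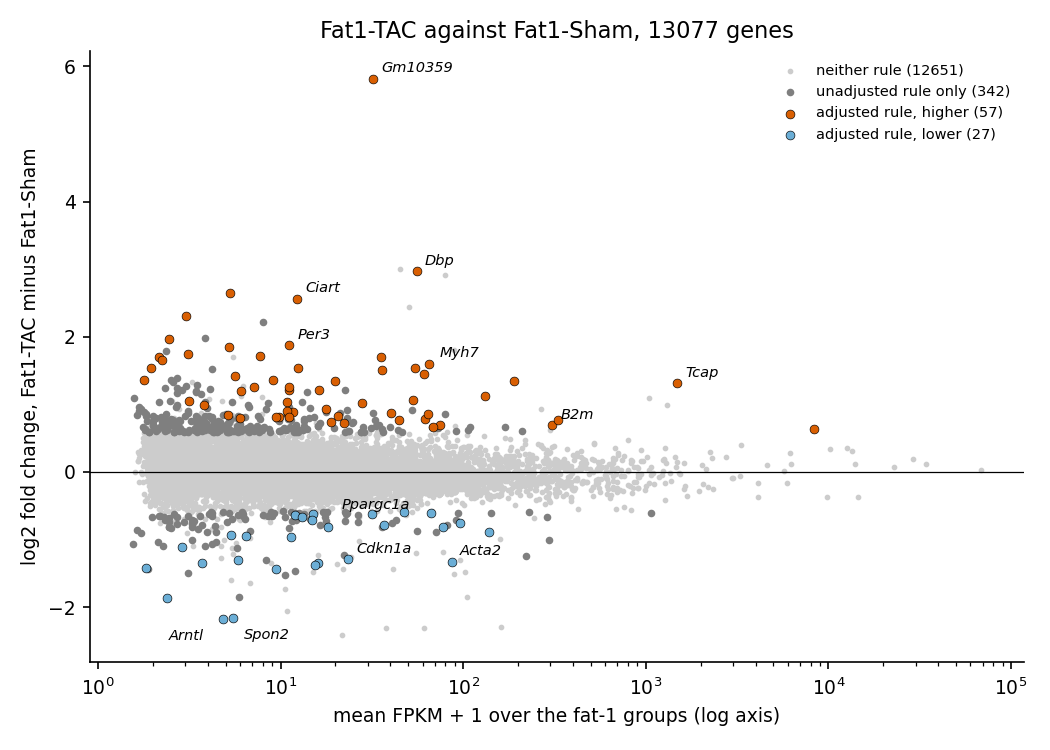
Log2 fold change, Fat1-TAC minus Fat1-Sham on the log2(FPKM + 1) scale, against the mean FPKM + 1 over the fat-1 groups (log axis), 1 point per gene. Orange points are the 57 upregulated DEGs, blue points the 27 downregulated DEGs, dark grey points the genes past the unadjusted rule only and light grey points the rest. The pseudogene Gm10359 lies far above Dbp and Ciart, and Arntl and Spon2 lie near the bottom.

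Clock genes held the largest log2 fold changes among protein-coding DEGs, on the log2(FPKM + 1) scale used throughout: Dbp, Ciart and Per3 led the increases and Arntl the decreases. By the ratio of mean FPKM, Gm2004, a gene of low level, rose by more than Dbp. Of the 20 clock genes, 9 were upregulated and 4 downregulated at the adjusted rule, and 10 were higher and 4 lower at the unadjusted rule. The upregulated genes were Dbp, Ciart, Per1, Per2, Per3, Hlf, Tef, Nr1d2 and Bhlhe41, and the downregulated ones Arntl, Npas2, Clock and Nfil3. Of the 16 clock genes with a RefSeq promoter entry (GRCm38.p6), 5 (31.2%; Per1, Cry1, Ciart, Tef and Bhlhe41) carry the canonical E-box CACGTG, a sequence that CLOCK and ARNTL bind, in the 250 bases before a start site on either strand, against 6.86% of the 27025 genes with an entry. The windows that lie outside annotated exons are shown because they hold strings that match known binding sequences of clock proteins. They belong to Per1, Ciart, Tef and Per3, and to Cry1, which was not called. Capitals mark every E-box or, for Per3, the D-box TTATGTAA, to which the PAR bZIP proteins DBP, TEF and HLF bind.
Per1, chr11:69098756-69098815, plus strand: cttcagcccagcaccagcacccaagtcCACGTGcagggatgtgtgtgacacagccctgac
Cry1, chr10:85185082-85185141, minus strand: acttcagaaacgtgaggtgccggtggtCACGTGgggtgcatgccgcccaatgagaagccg
Ciart, chr3:95882312-95882371, minus strand: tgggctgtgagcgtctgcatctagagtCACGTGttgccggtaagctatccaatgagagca
Ciart, chr3:95882254-95882313, minus strand: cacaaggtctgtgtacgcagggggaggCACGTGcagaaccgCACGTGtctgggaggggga
Tef, chr15:81811249-81811308, plus strand: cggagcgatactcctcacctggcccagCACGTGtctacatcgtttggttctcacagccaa
Per3, chr4:151044836-151044897, minus strand: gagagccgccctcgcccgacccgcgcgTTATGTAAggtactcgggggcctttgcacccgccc
Per3, chr4:151044789-151044850, minus strand: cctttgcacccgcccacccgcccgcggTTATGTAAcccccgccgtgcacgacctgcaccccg
The D-box was present in 1 of the 16 genes (Per3) and in 0.977% of all genes with an entry, and the ROR element core TAGGTCA in 1 of 16 (Nfil3) and in 2.55%. A match is a string of letters in this window and was not tested for binding.

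Dbp, an output gene of the clock that encodes a PAR bZIP transcription factor, was at 15.4 and 8.66 FPKM in the Fat1-Sham libraries and at 97.0 and 97.8 FPKM in the Fat1-TAC libraries. Its mean was 8.09 times higher after TAC (log2 fold change 2.97 ± 0.23, SE; limma adjusted p = 0.017). Ciart, a repressor of CLOCK and ARNTL, was at 2.50 and 2.54 FPKM after sham and at 22.8 and 17.2 FPKM after TAC, 7.94 times higher (log2 fold change 2.56 ± 0.15; limma adjusted p = 0.017). For both genes the groups lay much further apart than the libraries within a group.

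All 3 Period genes, whose proteins form the repressor complex of the clock, were upregulated. Per1 was at 9.68 and 10.8 FPKM after sham and at 25.5 and 29.6 FPKM after TAC (log2 fold change 1.34 ± 0.12; limma adjusted p = 0.023). Per2 was at 2.84 and 2.31 FPKM against 9.04 and 12.7 FPKM, with a log2 fold change of 1.72 ± 0.18 (limma adjusted p = 0.052). Per3 was at 4.56 and 2.93 FPKM against 12.8 and 20.5 FPKM, with a log2 fold change of 1.88 ± 0.25 (limma adjusted p = 0.075). The remaining PAR bZIP genes followed Dbp. Hlf went from 9.70 and 7.75 FPKM to 18.7 and 24.7 FPKM (log2 fold change 1.22) and Tef from 90.4 and 73.6 FPKM to 158 and 201 FPKM (log2 fold change 1.12), both at a limma adjusted p of 0.075. The repressors Nr1d2 (REV-ERBβ) and Bhlhe41 (DEC2) were also upregulated, by 0.86 and 0.85 on the log2 scale. Wee1, a kinase gene under clock control, was at 3.98 and 4.26 FPKM against 5.46 and 8.64 FPKM and passed the unadjusted rule only (log2 fold change 0.62, limma adjusted p = 0.240).

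The activating arm moved the other way. Arntl was at 6.58 and 7.23 FPKM after sham and at 0.979 and 0.546 FPKM after TAC, and its mean was 9.06 times lower (log2 fold change -2.17 ± 0.17; limma adjusted p = 0.017). Npas2, a paralog of Clock, was at 2.63 and 3.25 FPKM against 0.711 and 0.923 FPKM (log2 fold change -1.11, limma adjusted p = 0.096). Clock fell less, from 13.6 and 13.7 FPKM to 8.56 and 8.24 FPKM (log2 fold change -0.64, limma adjusted p = 0.098). Nfil3, a repressor at D-boxes, was lower as well, at 6.00 and 8.73 FPKM against 2.14 and 2.58 FPKM (log2 fold change -1.30, limma adjusted p = 0.094). Nr1d1 (REV-ERBα) was at 36.7 and 33.7 FPKM against 57.2 and 46.9 FPKM and did not pass either rule (log2 fold change 0.55). Cry1 overlapped between the groups, with 9.95 and 12.2 FPKM against 6.09 and 11.8 FPKM.

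The hour of tissue collection is not given in the sources used here. Surgery and hour of collection thus cannot be told apart, for clock genes or for any other gene compared here. In the WT hearts the Dbp values were 23.9 and 62.8 FPKM after sham and 65.3 and 104 FPKM after TAC, and those of Per1 were 8.48 and 13 FPKM against 21.2 and 29.0 FPKM. Arntl was at 3.58 and 1.96 FPKM in WT-Sham and at 13.2 and 0.446 FPKM in WT-TAC, so the WT-TAC libraries lay on either side of WT-Sham. For no clock gene was the response shown to differ between the genotypes (interaction adjusted p = 0.495 or above, limma on 8 libraries). Without Fat1-TAC2 none of the 20 passed the adjusted rule, and 10 higher and 6 lower passed the unadjusted rule.

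**Figure D3:**
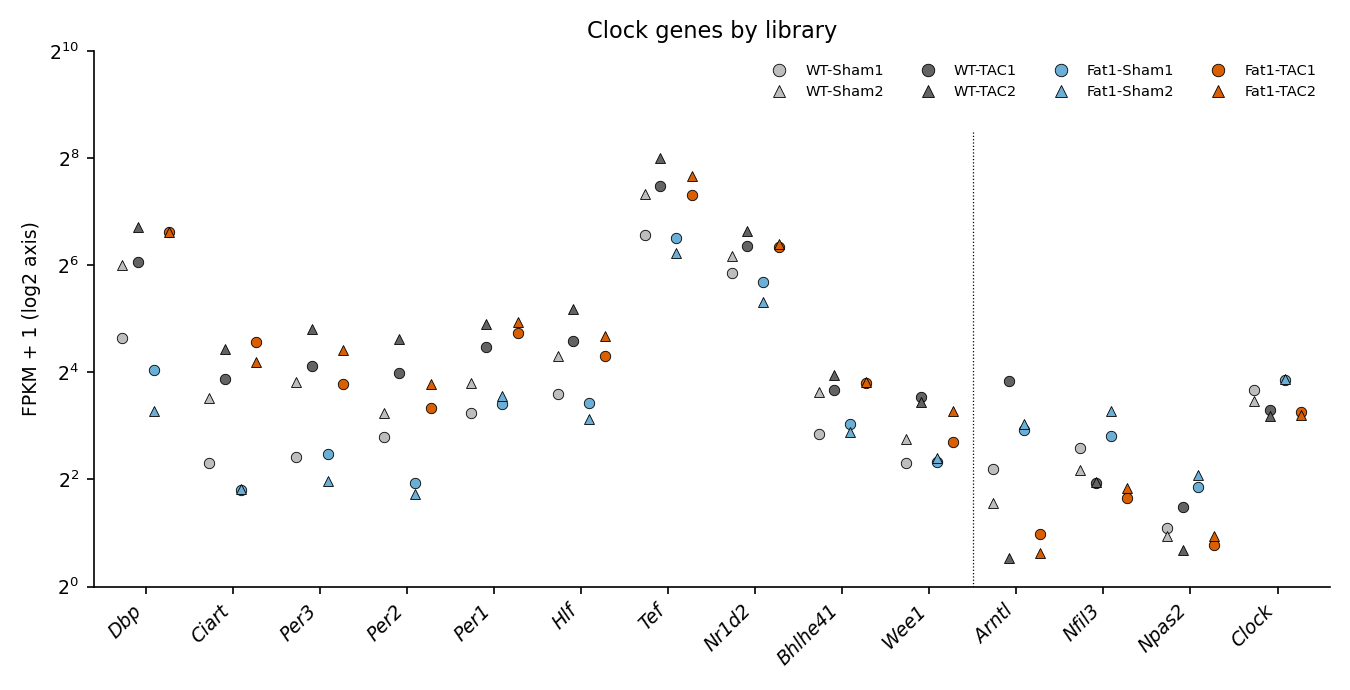
FPKM + 1 on a log2 axis for 14 clock genes in each of the 8 libraries, with circles for replicate 1 and triangles for replicate 2 of WT-Sham (light grey), WT-TAC (dark grey), Fat1-Sham (blue) and Fat1-TAC (orange). Left of the dotted line both Fat1-TAC points lie above both Fat1-Sham points (Dbp at 97.0 and 97.8 against 15.4 and 8.66 FPKM), and right of it they lie below (Arntl at 0.979 and 0.546 against 6.58 and 7.23 FPKM).

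Among contractile genes, the slow myosin locus stood out. Myh7 (chr14:54970684-54994626, minus strand, GENCODE M21 on GRCm38) was at 31.1 and 30.5 FPKM after sham and at 76.0 and 120 FPKM after TAC. Its mean was 3.18 times higher (log2 fold change 1.60 ± 0.20; limma adjusted p = 0.075). Myh6, which lies next to it and is far more abundant, was at 15276 and 17694 FPKM against 12114 and 13232 FPKM and passed neither rule (log2 fold change -0.38, limma adjusted p = 0.217).

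Myosin genes of the heart carry microRNAs of the miR-208 and miR-499 family in their introns: Mir208a in Myh6, Mir208b in Myh7 and Mir499 in Myh7b. The mature sequences (RefSeq) are shown because 2 of the 3 host genes were upregulated, with the seed, bases 2 to 8, in capitals.
mmu-miR-208b-3p: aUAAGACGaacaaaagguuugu
mmu-miR-208a-3p: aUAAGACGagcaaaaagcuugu
mmu-miR-499-5p: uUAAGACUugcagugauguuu
The miR-208 pair share the seed UAAGACG, and all 3 share bases 2 to 7. The libraries hold fragments of longer RNA, so mature microRNAs were not measured, and fragments on a microRNA gene cannot be told apart from those of its host. The same holds for RNAs of the opposite strand, since strand use in counting is not given in the sources used here. Mir208b, Mhrt, Gm17428 and Myh7b were chosen after their values were seen.

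Fragments on Mir208b (chr14:54975700-54975776) numbered 152 and 155 after sham and 372 and 400 after TAC, or 111 and 103 FPKM against 259 and 286 FPKM (log2 fold change 1.34 ± 0.09; limma adjusted p = 0.017). Mhrt, a noncoding RNA antisense to Myh7, was at 31.4 and 35.3 FPKM against 71.0 and 70.9 FPKM (log2 fold change 1.07, limma adjusted p = 0.023). Gm17428, a short entry on the opposite strand within Myh7, was at 32.7 and 30.8 FPKM against 84.6 and 91.2 FPKM (log2 fold change 1.44, limma adjusted p = 0.017). All 3 overlap Myh7 and are not independent of it. Myh7b, a separate slow-type myosin gene on chromosome 2, was at 28.0 and 26.9 FPKM after sham and at 50.1 and 52.1 FPKM after TAC (log2 fold change 0.87 ± 0.09; limma adjusted p = 0.037). Mir208a had 2 and 3 fragments after sham and 10 and 28 after TAC, and passed the unadjusted rule only (log2 fold change 2.22 ± 0.42; limma adjusted p = 0.135).

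Tcap, which encodes telethonin, the Z-disc cap of titin, was upregulated from 933 and 773 FPKM to 2269 and 1955 FPKM (log2 fold change 1.31 ± 0.12; limma adjusted p = 0.033). Of the 20 adult sarcomere genes, 1, Tcap, passed the adjusted rule. Ttn, the gene of titin itself, was at 117 and 146 FPKM against 192 and 223 FPKM and passed the unadjusted rule (log2 fold change 0.66, limma adjusted p = 0.140). The list had 3 higher (15.0%, against 2.29% of all genes) and 0 lower genes at the unadjusted rule. Its median log2 fold change was 0.04.

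The rest of the fetal and hypertrophy list did not follow Myh7. Of 22 genes tested, Myh7 alone was upregulated, and 3 (13.6%, against 0.971% of all genes) were lower at the unadjusted rule. The median log2 fold change was -0.13 (0.01 without Fat1-Sham1). Nppb was at 284 and 418 FPKM after sham and at 264 and 178 FPKM after TAC (log2 fold change -0.67, limma adjusted p = 0.257). Rcan1, a target of calcineurin and NFAT, was at 42.8 and 58.5 FPKM against 26.9 and 31.7 FPKM (log2 fold change -0.76, limma adjusted p = 0.157), and Tnfrsf12a, the TWEAK receptor gene, had a log2 fold change of -0.87 (limma adjusted p = 0.216). Ankrd1, a stress-responsive gene of the sarcomere, was at 438 and 449 FPKM against 575 and 606 FPKM, a log2 fold change of 0.41. Skeletal α-actin Acta1 overlapped between the groups, at 109 and 276 FPKM against 421 and 262 FPKM.

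Nppa rested on a single library. It was at 128 FPKM in Fat1-Sham1 and 9.04 FPKM in Fat1-Sham2, and at 13.6 and 11.1 FPKM in the Fat1-TAC libraries (log2 fold change -1.44 ± 1.06; limma adjusted p = 0.531). Without Fat1-Sham1 the log2 fold change was 0.41. The atrial light chain Myl4 behaved likewise, with 380 FPKM in Fat1-Sham1 and between 5.97 and 16.9 FPKM elsewhere, and sarcolipin (Sln) was at 141 FPKM in Fat1-Sham1 and between 1.13 and 3.86 FPKM elsewhere.

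**Figure D4:**
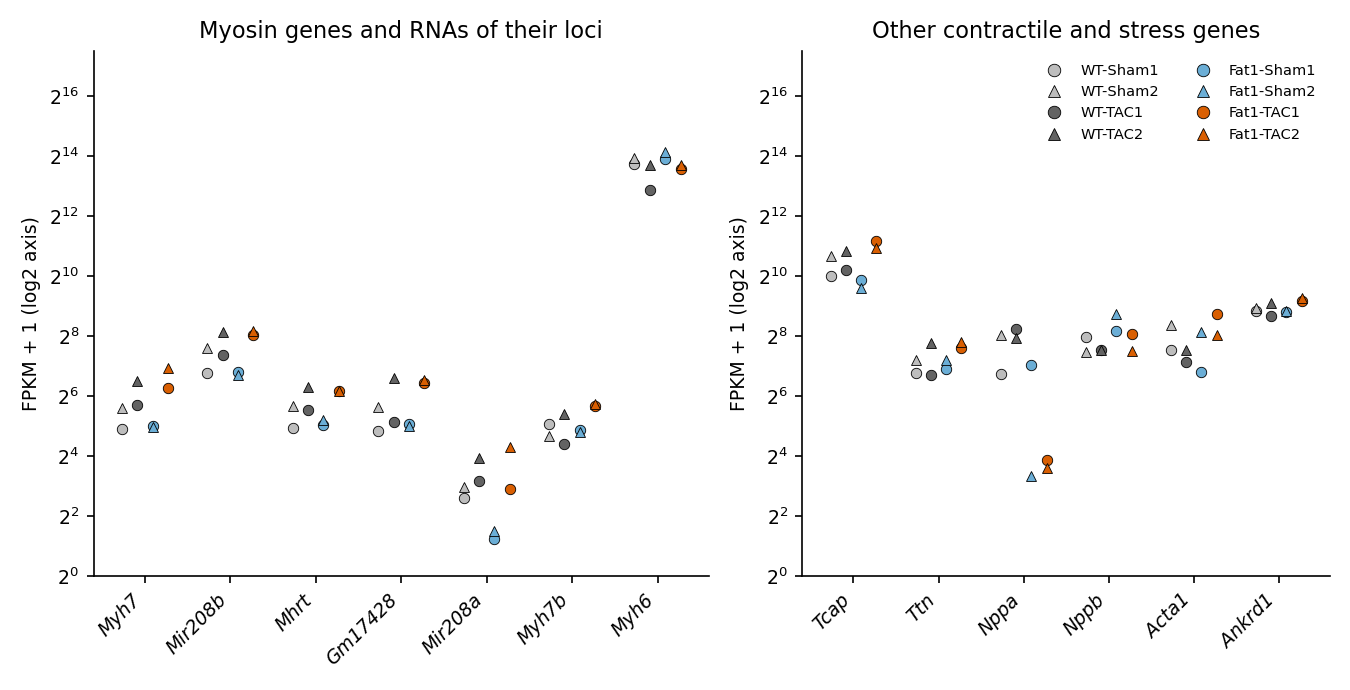
FPKM + 1 on a log2 axis for myosin genes and RNAs of their loci (left) and for other contractile and stress genes (right) in each of the 8 libraries; circles are replicate 1 and triangles replicate 2 of WT-Sham (light grey), WT-TAC (dark grey), Fat1-Sham (blue) and Fat1-TAC (orange). Myh7, Mir208b, Mhrt, Gm17428, Myh7b and Tcap lie higher in both Fat1-TAC libraries, whereas Nppa is high in Fat1-Sham1 (128 FPKM) alone among the fat-1 libraries.

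Among regulators of fuel use, Ppargc1a, the gene of PGC-1α, fell, while PPAR target genes leaned downward without a DEG. Ppargc1a was downregulated from 46.2 and 44.9 FPKM to 25.2 and 26.6 FPKM, 1.76 times lower (log2 fold change -0.79 ± 0.09; limma adjusted p = 0.055). Ppara was at 37.7 and 34.9 FPKM against 21.6 and 26.7 FPKM and, with a fold just short of 1.5, passed neither rule (log2 fold change -0.57, limma adjusted p = 0.157). In the list of 20 PPAR, PGC-1 and ERR regulators Ppargc1a was the single DEG, and the median was -0.18. Of these 20, 11 were lower in both Fat1-TAC libraries and 3 higher in both, against 22.8% and 27.3% of all genes.

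Among 17 PPAR target genes tested, 2 had a log2 fold change above 0, against 53.6% of all genes. In both Fat1-TAC libraries 11 were lower, against 22.8% of all genes, and the median was -0.41. None of the 17 passed the adjusted rule, whereas 4 were lower at the unadjusted rule, against 0.971% of all genes. That count of 4 fell to 2 with quantile normalization or with all 8 libraries in the fit. It was 0 with no filter beyond a value above 0 or with the per-gene test, and 5 with a pseudocount of 0.1 or limma-voom. White adipocyte genes, which share Pck1 and Cidec with this list, were below 0 for 18 of 19 tested (median -0.69), with none past either rule. Their median ran from -1.61 without Fat1-TAC2 to 0.42 without Fat1-TAC1, while that of the PPAR targets stayed between -0.37 and -0.31 with any 1 library left out. Pdk4, the kinase that holds back pyruvate oxidation, was at 256 and 352 FPKM after sham and at 196 and 80.7 FPKM after TAC (log2 fold change -1.25, limma adjusted p = 0.231). Angptl4, an inhibitor of lipoprotein lipase, was at 16.9 and 5.70 FPKM against 3.16 and 3.73 FPKM (log2 fold change -1.30 ± 0.42; limma adjusted p = 0.241). Acot1, an acyl-CoA thioesterase gene, and Txnip, which restrains glucose uptake, had log2 fold changes of -0.73 and -0.59. Pck1, the gene of a gluconeogenic and adipocyte enzyme, was at 61.2 and 7.14 FPKM after sham and at 0.204 and 13.9 FPKM after TAC, so the groups overlapped and the libraries of each group lay far apart. Fabp3, the fatty acid-binding protein of heart muscle, ran against the list at 2632 and 3066 FPKM against 3955 and 3553 FPKM (log2 fold change 0.40, limma adjusted p = 0.200), without reaching a fold of 1.5. Of 20 genes of mitochondrial fatty acid oxidation none passed either rule, and the median was -0.13. Of these 20, 12 were lower in both Fat1-TAC libraries and 5 higher in both, against 22.8% and 27.3% of all genes.

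Nuclear genes of the respiratory chain did not move as a group. No gene passed either rule among 37 of complex I (median log2 fold change 0.00) or 38 of complexes III to V (median 0.02). All 13 mitochondrially encoded subunits had a log2 fold change above 0, against 53.6% of all genes. Their median was 0.35, and 2 were upregulated. That median moved to 0.10 when Fat1-TAC1 was left out and to 0.72 when Fat1-TAC2 was. mt-Nd6, the only subunit encoded on the light strand, was at 6642 and 6377 FPKM after sham and at 10697 and 9634 FPKM after TAC (log2 fold change 0.64, limma adjusted p = 0.094). mt-Atp8 was at 21.2 and 14.5 FPKM against 52.7 and 50.5 FPKM (log2 fold change 1.5, limma adjusted p = 0.062). Both overlap a neighbour, mt-Nd6 the gene mt-Nd5 on the opposite strand and mt-Atp8 the gene mt-Atp6, so their fragments are uncertain. mt-Atp6 itself reached 2329 FPKM in Fat1-TAC1 and between 474 and 717 FPKM in the other 3 libraries. Mpc1, a subunit of the carrier that brings pyruvate into mitochondria, was upregulated from 15.9 and 15.8 FPKM to 24.7 and 28.9 FPKM (log2 fold change 0.72, limma adjusted p = 0.094). Ppp1r3c, a glycogen-targeting subunit of protein phosphatase 1, fell from 55.2 and 56.3 FPKM to 36.3 and 36.9 FPKM (log2 fold change -0.59, limma adjusted p = 0.075).

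Genes of the extracellular matrix moved in both directions. The main collagens of the heart were slightly lower in both Fat1-TAC libraries and passed neither rule. Col1a1 was at 60.4 and 60.8 FPKM against 57.7 and 55.5 FPKM and Col3a1 at 143 and 132 FPKM against 103 and 113 FPKM. The list of 27 fibrillar collagen and matrix genes had a median log2 fold change of -0.09. It held 11 genes lower in both Fat1-TAC libraries and 6 higher in both, against 22.8% and 27.3% of all genes. Its single gene past the unadjusted rule was elastin, Eln, at 37.0 and 23.5 FPKM after sham and 13 and 11.2 FPKM after TAC (log2 fold change -1.23, limma adjusted p = 0.111).

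Within 29 matricellular and activated fibroblast genes, 1 was upregulated and 1 downregulated. At the unadjusted rule 3 (10.3%) were higher and 2 (6.9%) lower, against 2.29% and 0.971% of all genes. Acta2, the α-actin of smooth muscle and myofibroblasts, was at 125 and 120 FPKM after sham and at 56.3 and 41.4 FPKM after TAC, 2.51 times lower (log2 fold change -1.33 ± 0.15; limma adjusted p = 0.055). Acta2 was also the single DEG of 17 smooth muscle and pericyte genes, whose median was -0.16 with all libraries and 0.30 without Fat1-Sham1. In the WT libraries its values spread more widely, from 47.7 to 212 FPKM after sham and from 135 to 178 FPKM after TAC. Thbs4 (2.85 and 2.91 FPKM against 5.90 and 4.92 FPKM) and Fap (2.04 and 1.42 FPKM against 2.77 and 3.68 FPKM), both genes of activated fibroblasts, were higher at the unadjusted rule only. Ccn2 (CTGF), which TGF-β induces, was at 33.4 and 21.3 FPKM against 16.5 and 14.9 FPKM and lower at the unadjusted rule (log2 fold change -0.73, limma adjusted p = 0.204). Periostin, Postn, was at 18.7 and 12.8 FPKM against 26.2 and 19.1 FPKM and passed neither rule.

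Interferon-stimulated genes leaned upward by small amounts. Of 32 tested, 30 had a log2 fold change above 0, as did 53.6% of all genes. Of the 32, 23 were higher in both Fat1-TAC libraries and 0 were lower in both, against 27.3% and 22.8% of all genes. The unadjusted rule was passed by 8 genes, all of them higher, against 2.29% of all genes, and the adjusted rule by 2. The median log2 fold change was 0.38. B2m, the light chain of MHC class I, was at 236 and 230 FPKM after sham and at 353 and 405 FPKM after TAC (log2 fold change 0.70, limma adjusted p = 0.075). Ifit3, an antiviral effector, was at 5.48 and 6.24 FPKM against 11.6 and 10.5 FPKM (log2 fold change 0.81, limma adjusted p = 0.094). The GTPase gene Iigp1 (log2 fold change 0.80), the transcription factor gene Irf7 (0.60) and the immunoproteasome gene Psmb9 (0.59) passed the unadjusted rule. The count of 8 fell to 3 without Fat1-Sham1, and to 3 with scaling by the median of ratios or with quantile normalization. H2-Q7 and H2-Q5, MHC class I genes chosen after their values were seen, were upregulated by 1.26 and 1.20 on the log2 scale, but they are close paralogs and their counts are uncertain. For the 6 MHC class II genes tested the median was 0.31, and none passed either rule. It rested on Fat1-TAC2, the library with the high Igkc, with a median of 0.05 without that library and 0.59 without Fat1-TAC1, where 3 passed the unadjusted rule. The 25 macrophage genes tested had a median of 0.03, and their sum lay between 466 and 486 FPKM in the fat-1 libraries.

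Stress-responsive transcription factors did not move together. Klf2, a flow-responsive factor of endothelium, was at 28.3 and 25.1 FPKM after sham and at 87.3 and 72.2 FPKM after TAC, 2.98 times higher (log2 fold change 1.54 ± 0.12; limma adjusted p = 0.017). Nr4a3, an orphan nuclear receptor gene, was at 3.75 and 4.98 FPKM against 0.990 and 1.21 FPKM (log2 fold change -1.35, limma adjusted p = 0.075). They were the 2 DEGs of 25 immediate early genes, whose median was 0.10 with all libraries, -0.14 without Fat1-TAC1 and 0.44 without Fat1-TAC2. Cdkn1a (p21), an inhibitor of cyclin-dependent kinases, was downregulated from 29.6 and 34.9 FPKM to 14.4 and 10.9 FPKM (log2 fold change -1.29, limma adjusted p = 0.070). All 16 DNA replication and mitosis genes that reached the expression filter had a log2 fold change above 0 (median 0.24), against 53.6% of all genes. Of the 16, 1, Mcm5, passed the unadjusted rule (log2 fold change 0.59). The median was 0.13 without Fat1-TAC2, 0.14 without Fat1-Sham2 and 0.38 without Fat1-TAC1, and the count of 1 went to 0, 0 and 4. Their levels were low, with the proliferation gene Mki67 at 0.677 and 0.654 FPKM after sham and at 1.08 and 1.85 FPKM after TAC.

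Few protein-folding genes passed the unadjusted rule and none the adjusted rule. Of 23 genes of the unfolded protein response, 14 were lower in both Fat1-TAC libraries and 3 higher in both, against 22.8% and 27.3% of all genes. The median log2 fold change was -0.24. The unadjusted rule was passed by 2, the endoplasmic reticulum chaperone gene Hyou1 (log2 fold change -0.62) and Sdf2l1 (-0.64). They made up 8.7% of the list, while 0.971% of all genes were lower at this rule. The median was -0.14 without Fat1-Sham1 and -0.15 without Fat1-TAC1, and the count of 2 went to 0 without Fat1-TAC1 and to 5 without Fat1-TAC2. Among 23 heat shock protein genes the constitutive chaperone Hspa8 alone (4.35%) passed the unadjusted rule. It was at 1153 and 1424 FPKM against 832 and 855 FPKM (log2 fold change -0.60, limma adjusted p = 0.133). The heat shock list had a median of -0.07, with 8 genes above 0, and 0.03 without Fat1-TAC2. The antioxidant enzyme gene Nqo1 was at 28.5 and 22.6 FPKM against 41.2 and 42.0 FPKM and was the single gene of 24 antioxidant genes past the unadjusted rule (log2 fold change 0.69, limma adjusted p = 0.127). Cytosolic ribosomal proteins, 37 genes, had a median of 0.13 and none past either rule. Of the 37, 26 were higher in both Fat1-TAC libraries and 6 lower in both, against 27.3% and 22.8% of all genes.

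Genes that handle PUFAs, the substrates of the transgene's enzyme, were compared as a list of 32 desaturase, elongase and eicosanoid genes. None of the 32 passed the adjusted rule, and the median log2 fold change was 0.06. Ephx1, a microsomal epoxide hydrolase, was at 37.5 and 29.9 FPKM after sham and at 51.7 and 51.9 FPKM after TAC (log2 fold change 0.61, limma adjusted p = 0.140). Cyp4f13, a cytochrome P450 gene of the family that ω-hydroxylates eicosanoids, was at 5.20 and 5.0 FPKM against 7.69 and 9.61 FPKM (log2 fold change 0.65, limma adjusted p = 0.157). Both passed the unadjusted rule, as the only 2 higher genes of the list (6.25%, against 2.29% of all genes), and 0 were lower.

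In the vessel wall list of 26 endothelial and angiogenic genes, Vwf, the gene of von Willebrand factor, was lower at the unadjusted rule, at 48.3 and 56.1 FPKM against 34.2 and 28.7 FPKM (log2 fold change -0.72, limma adjusted p = 0.111). Egfl7, a secreted factor of endothelial cells, was higher, at 77.9 and 65.4 FPKM against 115 and 104 FPKM (log2 fold change 0.61, limma adjusted p = 0.131). The median of the list was -0.04. Of 23 cardiac transcription factor genes, Irx3, a homeobox factor of the conduction system, was at 10.1 and 8.74 FPKM against 15.0 and 19.5 FPKM (log2 fold change 0.80, limma adjusted p = 0.133), and the list median was -0.08.

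**Figure D5:**
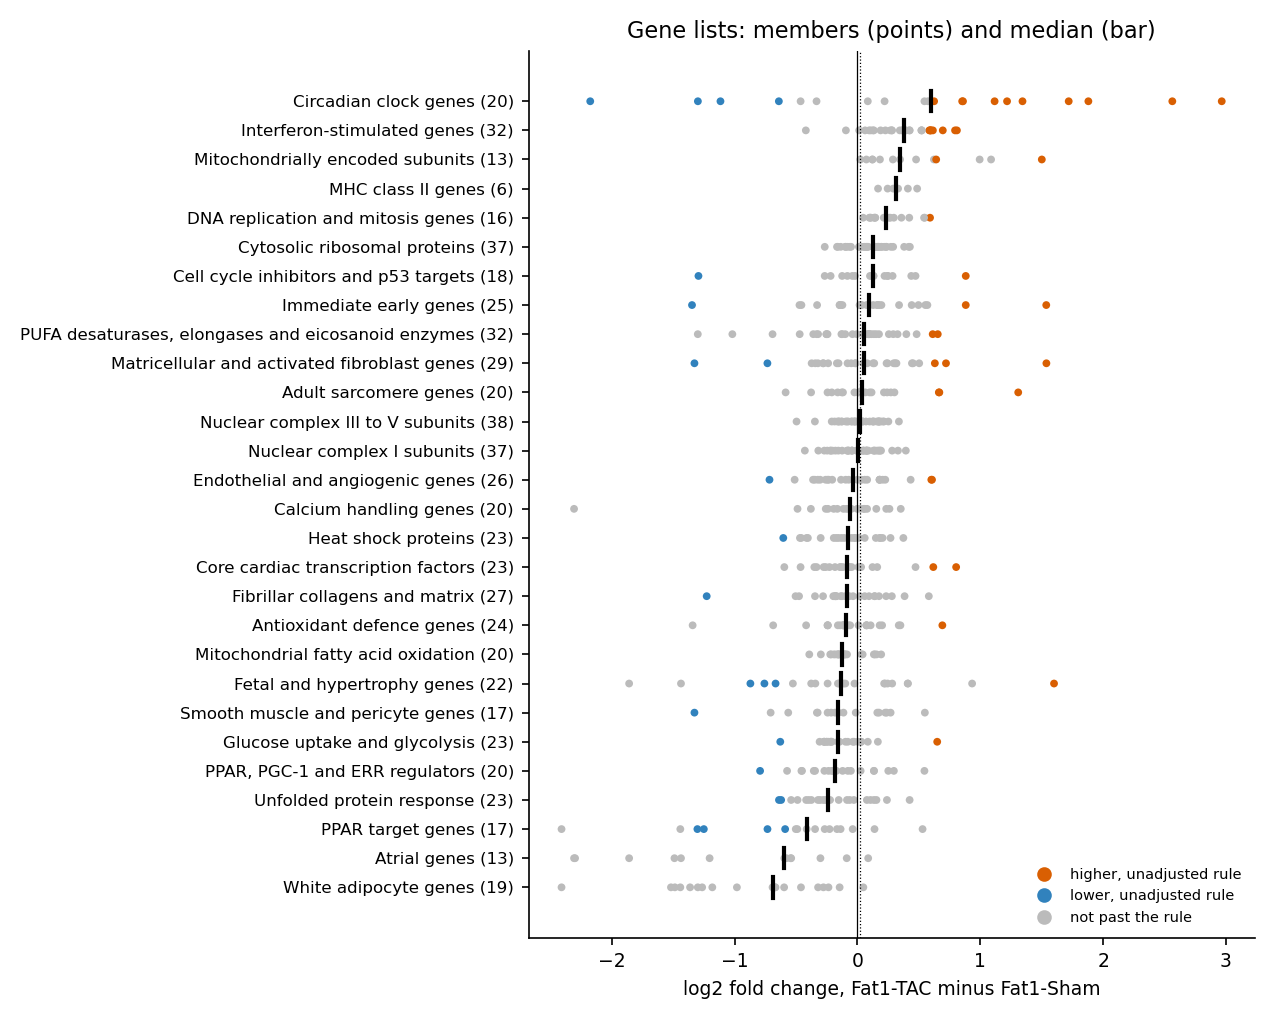
Log2 fold change, Fat1-TAC minus Fat1-Sham, of the members of 28 gene lists (points; number tested in parentheses), ordered by list median (black bar), with orange and blue points for members higher and lower at the unadjusted rule and grey points for the rest. The dotted line is the median of all genes (0.02), and clock genes spread widest, from Arntl at -2.17 to Dbp at 2.97, while interferon-stimulated genes lie mostly right of 0 and PPAR targets mostly left of it.

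Outside these lists, Spon2, a secreted F-spondin family gene, was at 7.85 and 8.11 FPKM after sham and at 1.27 and 0.770 FPKM after TAC, 7.82 times lower (log2 fold change -2.16 ± 0.17; limma adjusted p = 0.017). Adam19, a membrane metalloprotease gene, was at 27 and 17.3 FPKM against 7.27 and 8.49 FPKM (log2 fold change -1.35, limma adjusted p = 0.094). The pseudogene Gm8325 was at 22.6 and 19.8 FPKM against 9.59 and 5.89 FPKM (log2 fold change -1.38, limma adjusted p = 0.094). Tmem150a, a membrane protein gene, rose from 0.905 and 1.65 FPKM to 6.43 and 7.86 FPKM (log2 fold change 1.85 ± 0.20; limma adjusted p = 0.055), and Gm2004 from 0.316 and 0.503 FPKM to 4.74 and 2.86 FPKM (log2 fold change 1.74, limma adjusted p = 0.075). Mir5125, an entry inside Srrm2 on the same strand, was at 15.7 and 15.5 FPKM against 48.1 and 58.6 FPKM (log2 fold change 1.70, limma adjusted p = 0.017).

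The pseudogene Gm10359 (chr5:105862701-105863702) was detected in both Fat1-TAC libraries and in neither Fat1-Sham library. It had 0 fragments in each Fat1-Sham library and was at 91.1 and 33.7 FPKM in the Fat1-TAC libraries, at least 383.5-fold higher against a floor of 3 fragments per library. That floor covers counting error only. The entry is annotated as a processed pseudogene, and whether its fragments belong to related sequences was not tested. Of the 84 DEGs, 25 were not annotated as protein coding, and 9 had at most 10 fragments in each of the 4 libraries, among them Ighj4, Gm17720, Gm27326, Gm29163, Mir5100 and Mir7052, so they rest on few reads.

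Some genes differed by a large factor between group means and failed the adjusted rule because their libraries lay apart. Sbk2, a kinase gene, was at 23.6 and 6.87 FPKM against 3.62 and 4.05 FPKM (log2 fold change -1.53, limma adjusted p = 0.234). Arl4a, a small GTPase gene, was at 7.07 and 8.06 FPKM after sham and was listed at 0 in Fat1-TAC1 and at 4.65 FPKM in Fat1-TAC2 (limma adjusted p = 0.285). Gm11847, at 28.9 FPKM in Fat1-Sham2, lay between 4.33 and 6.38 FPKM in the other libraries. The immunoglobulin segment Igkv8-30 reached 9.73 FPKM in Fat1-TAC2 only, the library with the high Igkc.

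Several DEGs chosen after their values were seen were abundant. The nuclear noncoding RNAs Malat1 (236 and 250 FPKM against 388 and 445 FPKM) and Neat1 (54.1 and 49.6 FPKM against 77.6 and 87.5 FPKM) were upregulated, by 0.77 and 0.66 on the log2 scale. Rbm3, a cold-inducible RNA-binding protein gene, was at 33.6 and 30.1 FPKM against 56.9 and 52.5 FPKM (log2 fold change 0.76). Tspan4, a tetraspanin gene, rose from 19.8 and 15.1 FPKM to 35 and 37.5 FPKM, 2.08 times higher. Rrad, a GTPase that restrains L-type calcium channels, was lower, at 195 and 163 FPKM against 86.7 and 106 FPKM (log2 fold change -0.89).

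Whether fat-1 and WT hearts responded differently was tested as the interaction of genotype and surgery over all 8 libraries and 14442 genes. The median difference over these genes was -0.37 on the log2 scale, so the typical gene lay below 0. A more positive change in fat-1 hearts was called for 1 gene (0.00692%) and a more negative one for 9 genes (0.0623%). These calls were lost with a pseudocount of 0.1, a filter at a mean of 5 FPKM, quantile normalization, limma-voom or the replicate block, each of which called 0 genes by limma (63 to 432 positive and 290 to 905 negative at the unadjusted rule). The positive gene was Gm10359, which was at or below 0.0941 FPKM in all 4 WT libraries. The 3 with the largest negative difference were Scgb3a2, Cyp2a5 and Ltf, genes of airway secretory cells. Scgb3a2 was at 92.9 and 219 FPKM in the WT-TAC libraries, at 2.82 FPKM in Fat1-Sham1 and at 0 in the remaining 5 libraries. These differences arose in the WT-TAC libraries, in which the 30 lung and airway genes summed to 2033 and 4327 FPKM, against 116 to 209 FPKM in the fat-1 libraries.

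For the DEGs of the fat-1 hearts, the WT values are given side by side. Of the 57 upregulated genes 50 had a WT log2 fold change above 0, as did 78.0% of all genes, and of the 27 downregulated genes 20 had one below 0, as did 22.0% of all genes. Klf2 was at 27.3 and 23.3 FPKM in WT-Sham and at 27.5 and 48.8 FPKM in WT-TAC. Tcap was at 1012 and 1624 FPKM against 1158 and 1836 FPKM. The WT groups overlapped for Tcap and not for Klf2, and neither gene had an interaction adjusted p below 0.495 (limma), so a difference from WT hearts was not shown for them.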

How the data were processed

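RNA-seq libraries (NEBNext Ultra kit) were made from 3 µg of heart RNA per sample, 2 samples in each of 4 groups, and sequenced as paired ends on an Illumina HiSeq. The authors deposited FPKM values per gene and library. Their processing notes name HISAT2 and mm10 (GRCm38), and the counting program, annotation and strand setting are not given in the sources used here. FPKM divides out depth, but the values of 25928 of 25929 genes were whole fragments (tolerance 0.01) at 1 gene length, which gave the depths in the report. Fragments were used for the floor of 3 fragments, which covers counting error only, and for 1 alternative test.

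The 13077 genes that reached 1 FPKM in 2 or more of the 4 fat-1 libraries were fitted on log2(FPKM + 1) with limma 3.58.1 (lmFit, eBayes with trend; R 4.3.3) without covariates. The pseudocount of 1 makes the fold changes of low genes too small. Standard errors are limma's moderated ones, p-values were adjusted over all genes tested, and the interaction was fitted over 8 libraries. The p-values set the difference between groups against a spread between libraries that limma estimates partly from other genes. That shared part carried 4.16 degrees of freedom, against 2 from the libraries of each gene. With 2 libraries a group, the p-values speak for these samples only. The scripts were tested on simulated data.

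Named genes are the DEGs and unadjusted calls with the largest increases and decreases (10 each), the first 4 and the called members of each gene list, the genes the study measured by RT-qPCR (Fabp3, Pck1 and Angptl4), and the 3 interaction genes of largest difference in each direction. Ankrd1, Cry1, Igkc, mt-Atp6, Nr1d1 and Ppp1r3c, and the genes described so in the report, were chosen after their values were seen. Genes, gene lists and tests were chosen with earlier results of these data known, so lists carry counts and medians and no test of the list. Positions are those of GENCODE M21 (GRCm38) and sequences those of RefSeq. Some genes that the rule or a list would name are not reported here.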

Additional observations from a re-analysis of the deposited data

Results flagged for a closer look

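The interaction of genotype and TAC, tested over all 8 libraries with limma, picked out genes whose response differed between fat-1 and WT hearts. None of these calls held with a pseudocount of 0.1, a filter at a mean of 5 FPKM, quantile normalization, limma-voom or the replicate block. The largest positive difference was that of the pseudogene Gm10359, 5.85 on the log2(FPKM + 1) scale (adjusted p = 0.053), which was at 91.1 and 33.7 FPKM in the Fat1-TAC libraries and at most 0.0941 FPKM in the other 6.

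Scgb3a2 (-8.13, adjusted p = 0.066), Cyp2a5 (-7.43, adjusted p = 0.053) and Ltf (-6.63, adjusted p = 0.053) had the largest negative differences by limma, and these genes of airway and glandular epithelium were high in both WT-TAC libraries. Cyp2a5 was at 77.7 and 221 FPKM there and at most 0.822 FPKM elsewhere. Ltf was at 71.2 and 196 FPKM there and at most 0.484 FPKM elsewhere. In the fat-1 libraries themselves, between 3 and 16 of the 30 lung and airway genes were listed at 0. The part of other tissue in these differences was not tested.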

How the results depend on the processing

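With the 57 genes higher and 27 lower in Fat1-TAC as the reference, a fit of all 8 libraries called 1 higher and 0 lower, no filter beyond a value above 0 called 0 and 0, eBayes without a trend 19 and 4, a per-gene test with equal variances 0 and 0, a filter at a mean of 5 FPKM 86 and 33, and limma-voom on the recovered fragments 103 and 48. A pseudocount of 0.1 and quantile normalization each left 13 lower. Leaving out 1 library gave from 1 to 74 higher and from 0 to 52 lower, with the fewest without Fat1-TAC2 (1 and 0) and Fat1-TAC1 (12 and 4). A fit that lacks a library assumes that the lone sample varies like the other group.

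At the unadjusted rule, with 299 higher and 127 lower, all 8 libraries gave 193 and 76, a pseudocount of 0.1 gave 478 higher, the filter at a mean of 5 FPKM 141 and 73, the per-gene test 141 and 59, and limma-voom 496 higher. Leaving out 1 library gave from 303 to 513 higher and from 138 to 253 lower.

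The interaction, with 1 positive and 9 negative genes, gave 7 and 63 with no filter, 0 and 1 with scaling by the median of ratios, 20 negative with eBayes without a trend, 0 positive with the per-gene test, and 0 and 0 with a pseudocount of 0.1, the filter at a mean of 5 FPKM, quantile normalization, limma-voom and the replicate block. At the unadjusted rule the interaction gave 88 positive and 921 negative genes. The median difference over all genes tested was -0.37, so the typical gene already lay below 0. The rule gave 79 positive and 668 negative genes with the block and 304 and 386 with scaling by the median of ratios. It gave 432 and 290 with quantile normalization, where positive genes outnumbered negative ones. Leaving out 1 library gave from 0 to 884 positive and from 0 to 5795 negative genes, the highest without WT-TAC2. The cause of these shifts was not tested.

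The replicate block gave 68 higher and 34 lower genes in Fat1-TAC, of which 73 were among the 84 DEGs. Deviations of same-numbered libraries correlated at -0.187. With 2 libraries a group, this single correlation cannot show whether the numbers pair the samples. With the numbers crossed, a pairing chosen after seeing the data, 254 were higher and 130 lower. Of the named genes, 2 changed direction: Cry1 (log2 fold change -0.33) ranged from -0.76 without Fat1-TAC2 to 0.096 without Fat1-TAC1, and Nppa (-1.44) from -3.28 without Fat1-Sham2 to 0.41 without Fat1-Sham1. DEGs and other named genes kept their direction and side of the threshold in 948 values, lost the call in 296 and gained it in 75. At this depth, a gene with 3 fragments or fewer in a library lies at the floor.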
